A study of Mus musculus with 6 samples.

Results

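The 8 genes described here encode transcription factors of the naive pluripotency network: Esrrb, Tfcp2l1, Tbx3, Zfp42, Prdm14, Nr0b1, Nr5a2 and Gbx2. They were chosen by symbol, and all 8 were found among the 17485 gene names that each of 6 count files holds. RNA came from E14 mouse embryonic stem cells of 129/Ola background, which were grown in medium with fetal bovine serum and leukaemia inhibitory factor (LIF) and treated 24 h after seeding. The 2 libraries labelled 3 h and the 2 labelled 6 h came from cells given cycloheximide, a blocker of translation elongation, at 250 µg/mL in 0.007% ethanol for that time. The 2 control libraries came from cells that received ethanol without the drug for 9 h, so drug and vehicle exposure differ in length and the effects of drug and of exposure time cannot be told apart. E14 is 1 line, and no label says that the libraries of a group came from separate cultures. The p-values below therefore measure the spread between these libraries, which may be technical.

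Naive pluripotent cells correspond to the epiblast of the blastocyst before implantation, and in culture they are held in that state by LIF acting through Stat3 and by release of repression by Tcf7l1. Around the core factors Pou5f1 and Sox2, the naive factors form a mutually supporting set, and their transcripts are lost when cells leave the state. Esrrb, Nr5a2 and Nr0b1 are orphan nuclear receptors, Tfcp2l1 and Gbx2 are known as targets of LIF and Stat3, Tbx3 is a T-box factor, Zfp42 (Rex1) is a zinc-finger factor widely used as a marker of the state, and Prdm14 recruits repressors to genes of the primed state. In bulk RNA, fewer cells of a type and less RNA per cell cannot be told apart.

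The positions of the 8 genes were read from the mouse annotation (GENCODE M21, GRCm38, the assembly also called mm10, which the submitters' processing notes name). Gbx2 spans chr1:89927956-89931179 on the minus strand, Tfcp2l1 chr1:118627945-118685168 on the plus strand, Prdm14 chr1:13113457-13127163 on the minus strand and Nr5a2 chr1:136842571-136960448 on the minus strand. Esrrb spans chr12:86361117-86521628 on the plus strand, Tbx3 chr5:119670669-119684724 on the plus strand, Zfp42 chr8:43295063-43306980 on the minus strand and Nr0b1 chrX:86191764-86195947 on the plus strand. The annotation places exons of other genes over exons of 3 members: the antisense Tbx3os1 over Tbx3, D130058E05Rik on the opposite strand over Gbx2, and the small nuclear RNA Gm23497 over Tfcp2l1. Strandedness of the counting is not given in the sources used here, so reads of these neighbours cannot be told apart from those of the member.

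RefSeq (GRCm38.p6) promoter windows, 250 bases before to 50 bases after a gene start, matched 6 of the 8 members by symbol; no window was matched for Tbx3 or Prdm14. The windows of the 3 members with the smallest p at 6 h, all of which fell, and the upstream window of Esrrb, which did not pass any test, are shown to set the promoters of genes that fell beside one that did not. Only the 250 bases before the start are printed. Capitals mark the words searched for, on both strands and with overlaps between words allowed; each run reads 5′ to 3′ along the gene. The printed bases are chr1:89931177-89931426 (minus strand) for Gbx2, chr1:118627695-118627944 (plus) for Tfcp2l1, chr8:43307010-43307259 (minus) for Zfp42 and chr12:86360867-86361116 (plus) for Esrrb.
Gbx2: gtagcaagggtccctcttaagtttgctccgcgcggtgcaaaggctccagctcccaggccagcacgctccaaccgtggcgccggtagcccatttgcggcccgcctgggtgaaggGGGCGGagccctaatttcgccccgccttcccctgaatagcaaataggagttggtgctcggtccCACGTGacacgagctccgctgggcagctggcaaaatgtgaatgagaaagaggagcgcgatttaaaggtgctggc
Tfcp2l1: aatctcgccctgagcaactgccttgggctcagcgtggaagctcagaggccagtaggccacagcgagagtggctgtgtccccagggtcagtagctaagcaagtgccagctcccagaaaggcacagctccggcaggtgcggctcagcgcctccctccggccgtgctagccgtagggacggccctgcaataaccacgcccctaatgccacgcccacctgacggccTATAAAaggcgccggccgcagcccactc
Zfp42: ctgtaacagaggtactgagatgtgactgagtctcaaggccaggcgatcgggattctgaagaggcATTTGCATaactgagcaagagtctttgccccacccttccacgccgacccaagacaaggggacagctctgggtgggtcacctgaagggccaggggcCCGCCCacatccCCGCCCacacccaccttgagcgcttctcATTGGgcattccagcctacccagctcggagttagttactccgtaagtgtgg
Esrrb: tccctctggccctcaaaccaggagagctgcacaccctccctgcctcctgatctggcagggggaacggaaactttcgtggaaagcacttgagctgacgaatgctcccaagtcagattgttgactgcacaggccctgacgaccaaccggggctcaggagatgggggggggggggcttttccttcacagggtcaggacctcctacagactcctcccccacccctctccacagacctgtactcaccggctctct

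No word searched was in all 3 of the Gbx2, Tfcp2l1 and Zfp42 windows. The Gbx2 window holds the word GGGCGG of the GC box at 2 places, of which 1 lies after the start and is not printed, and 35.7% of all 32851 windows hold that word. It also holds the E-box word CACGTG, found in 7.15% of windows. The Tfcp2l1 window holds TATAAA, the TATA word, starting 28 bases before the gene start, and 13.6% of windows hold it. The Zfp42 window holds the octamer word ATGCAAAT in reverse orientation, which 1.74% of windows hold, with 2 GC boxes and CCAAT in reverse orientation, which 37.4% hold. The GC box was thus shared by Gbx2 and Zfp42. Of the other members called lower at 6 h, Nr0b1 holds the TATA word, starting at position -32 from the gene start. The upstream Nr5a2 window holds it in reverse orientation at position -181. That word was thus in windows of Tfcp2l1, Nr0b1 and Nr5a2, but in Nr5a2 it lay much farther from the start. The window of the inner Nr5a2 start holds CCAAT in reverse orientation. The upstream Esrrb window holds none of the 10 words searched, while the window of its inner start holds CCAAT.

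Some words were absent. AAGGTCA, a word bound by nuclear receptors such as Esrrb and Nr5a2 (4.72% of windows), TTCCNGGAA, a STAT word (1.15%), TGANTCA, an AP-1 word (7.81%), and TGACGTCA, a CREB word (1.79%), were in none of the member windows. CTTTGA, a TCF word (16% of windows), was in the Nr0b1 window, which also holds TATAAA. These matches are descriptions of the letters in these windows.

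Library totals ranged from 9385447 to 27351079 counts, and the 6 h libraries were the deepest. Levels are CPM, a gene's counts relative to its library's total on the usual common scale, after edgeR's trimmed-mean (TMM) correction of that total; a floor of 3 counts equals 0.099 to 0.367 CPM. They compare 1 gene between libraries and not genes with each other, since it is not stated whether reads cover whole transcripts. Among 12755 tested genes, edgeR's quasi-likelihood test called 625 at 3 h against control, 3703 at 6 h against control and 209 at 6 h against 3 h, at a Benjamini-Hochberg adjusted p under 0.05. The share of these calls that were higher was 73.4%, 50.8% and 27.8%, and with library totals alone it was 95.8%, 88.2% and 56.5%. That scaling shifted the median of all genes from 0.02 to 0.25 at 3 h and from 0.04 to 0.40 at 6 h on the log2 scale, and every change given here is on the TMM scale unless stated. Counts of the mitochondrial chromosome made up 24.7% to 24.9% of control libraries, 18.9% to 19.6% at 3 h and 16.6% to 17.4% at 6 h; the same numbers of members were called with those genes removed.

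**Figure D1:**
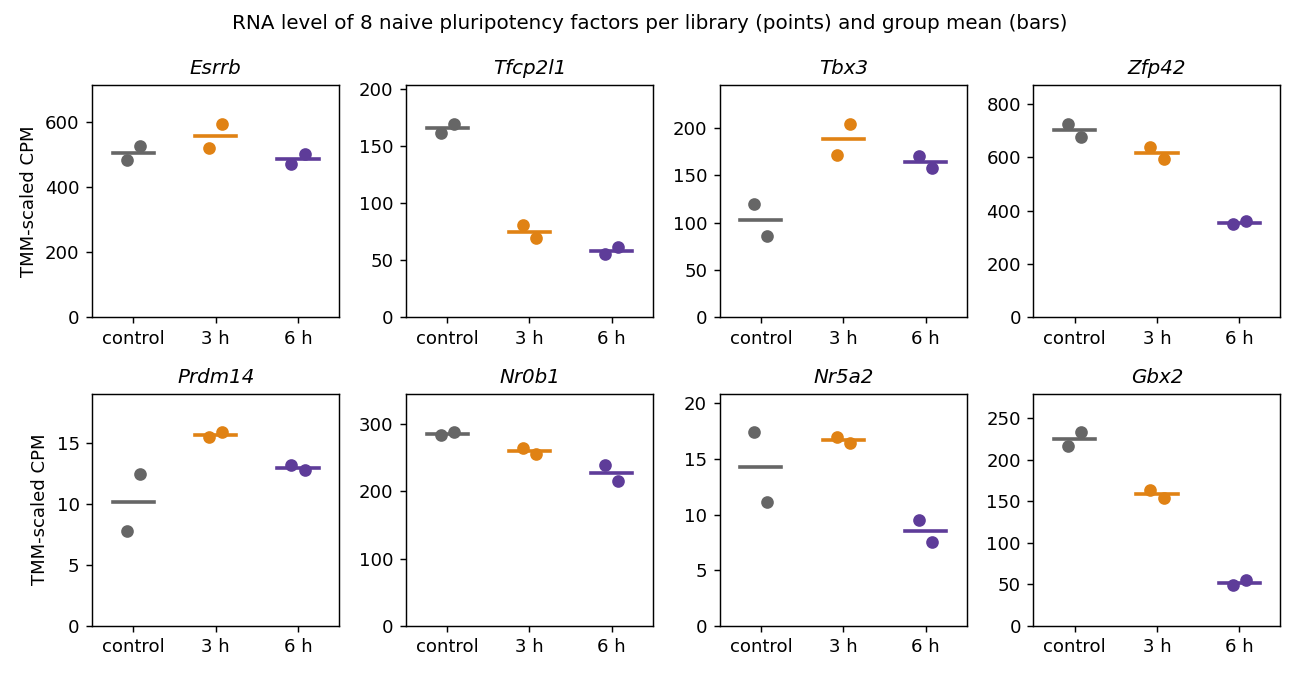
TMM-scaled CPM (y axis, from 0) in each of the 6 libraries (points, 2 per group) with the group mean (bars), 1 panel per gene. Gbx2, Tfcp2l1 and Zfp42 were lowest at 6 h, Tbx3 was higher in all 4 treated libraries than in control, and Esrrb stayed between 472 and 596 CPM.

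After the shorter block of translation, 3 naive factor transcripts were already called, of which only the Tfcp2l1 call held in all 17 alternative fits. Tfcp2l1 and Gbx2 fell, Tbx3 rose, and the other 5 did not pass. These 3 called members of 8 stand against 4.9% of all tested genes, with 1 higher (3.6% of all genes) and 2 lower (1.3% of all genes). With library totals alone 2 were called, Tfcp2l1 lower and Tbx3 higher. For 6 of the 8 members both 3 h libraries lay on the same side of both controls, that is, the groups did not overlap, as for 53.2% of all genes. At 6 h against control, 6 of the 8 were called, where 29% of all genes were: Gbx2, Tfcp2l1, Zfp42, Nr5a2 and Nr0b1 were lower (14.3% of all genes) and Tbx3 was higher (14.8% of all genes). With library totals alone 5 were called at 6 h, Gbx2, Tfcp2l1 and Zfp42 lower and Tbx3 and Prdm14 higher. The groups did not overlap for 7 of 8 members, against 66.8% of all genes. The median log2 fold change of the 8 was 0.01 at 3 h and -0.55 at 6 h, where that of all tested genes was 0.02 and 0.04. Both comparisons use the same control libraries.

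Gbx2, a homeobox factor that can sustain self-renewal downstream of LIF, fell furthest. It measured 217 and 233 CPM in control, 164 and 154 CPM at 3 h and 49 and 54.9 CPM at 6 h. No group overlapped another, and the 6 h libraries lay far below the rest. The log2 fold change was -0.50 ± 0.12 (SE) at 3 h (edgeR adjusted p = 0.0484) and -2.11 ± 0.12 at 6 h (edgeR adjusted p = 4.1e-05), a 4.33-fold decrease that ranked 16 of 12755 by p. The direct comparison of 6 h with 3 h gave -1.62 ± 0.12 (edgeR adjusted p = 0.000988), with rank 5 by p. Most of its decrease thus lay between the treatment times. The 3 h call was lost without control replicate 2 (-0.45, edgeR adjusted p = 0.119), without either 3 h or either 6 h library, with only the libraries compared (edgeR adjusted p = 0.0795) and with library totals alone (-0.27, edgeR adjusted p = 0.173), while the 6 h calls held in all 17 alternative fits.

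Tfcp2l1, a grainyhead-family factor that acts downstream of LIF and Stat3, followed another course. It measured 162 and 170 CPM in control, 80.6 and 69.1 CPM at 3 h and 55.1 and 61.4 CPM at 6 h. All 4 treated libraries were far below both controls, and the 6 h libraries lay below the 3 h libraries. The log2 fold change was -1.15 ± 0.13 (SE) at 3 h (edgeR adjusted p = 0.00302), a 2.22-fold decrease, and -1.51 ± 0.13 at 6 h (edgeR adjusted p = 0.000265), a 2.85-fold decrease. The log2 fold change between 6 h and 3 h was -0.36 ± 0.13, which did not pass (edgeR adjusted p = 0.191). Both calls against control held in all 17 alternative fits, and Tfcp2l1 was the only member called at 3 h in each of them.

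Zfp42, the zinc-finger marker of the naive state, fell at 6 h and did not pass at 3 h. It measured 727 and 676 CPM in control, 638 and 595 CPM at 3 h and 351 and 359 CPM at 6 h. The 3 h libraries lay just under the controls and the 6 h libraries far below them, with no overlap between groups. The log2 fold change was -0.19 ± 0.10 (SE) at 3 h (edgeR adjusted p = 0.275) and -0.98 ± 0.10 at 6 h (edgeR adjusted p = 0.000509). The direct comparison of 6 h with 3 h gave -0.80 ± 0.10 (edgeR adjusted p = 0.00879). The 6 h call against control held in all 17 alternative fits. The call between treatment times was lost without either 3 h library or either 6 h library, where the log2 fold change ranged from -0.85 to -0.74.

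Tbx3, a T-box factor that can maintain naive cells when supplied in excess, was the member that rose. It measured 120 and 86 CPM in control, 172 and 205 CPM at 3 h and 171 and 158 CPM at 6 h. All 4 treated libraries were above both controls, and the controls themselves differed. The log2 fold change was 0.87 ± 0.17 (SE) at 3 h (edgeR adjusted p = 0.0267), a 1.83-fold increase, and 0.68 ± 0.17 at 6 h (edgeR adjusted p = 0.019), a 1.6-fold increase. Without control replicate 2, the lower control, the values were 0.66 (edgeR adjusted p = 0.055) and 0.46 (edgeR adjusted p = 0.059), and without control replicate 1 they were 1.13 and 0.93, both called. The 3 h call was also lost without either 3 h or either 6 h library, and the 6 h call without either 6 h library. With only the libraries compared the 3 h value was 0.88 and was not called (edgeR adjusted p = 0.0602).

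Of the 3 nuclear receptors, Nr5a2 and Nr0b1 were called lower at 6 h and Esrrb was not called in any comparison. Esrrb, the receptor that binds many pluripotency enhancers, measured 484 and 527 CPM in control, 520 and 596 CPM at 3 h and 472 and 503 CPM at 6 h. Its groups overlapped in both comparisons with control, and its log2 fold changes of 0.14 ± 0.11 (SE) at 3 h and -0.05 ± 0.11 at 6 h did not pass (edgeR adjusted p = 0.456 and 0.762). With library totals alone the 6 h value was 0.31 (edgeR adjusted p = 0.0688). Nr0b1 (Dax1), which lacks the usual zinc-finger DNA-binding domain of its family and acts as a corepressor, measured 284 and 288 CPM in control, 265 and 256 CPM at 3 h and 239 and 215 CPM at 6 h. The 3 groups did not overlap, and the decrease at 6 h was small, with a log2 fold change of -0.33 ± 0.10 (edgeR adjusted p = 0.0449). That call was lost without any 1 of the 6 libraries, and with library totals alone the value was 0.03 (edgeR adjusted p = 0.865). It was also lost with upper-quartile scaling (0.0577), with no filter (0.0556), with the stricter filter (0.0603) and with only the libraries compared (0.0747), and it was made in 5 of 17 alternative fits.

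Nr5a2 (Lrh1), a receptor that binds regulatory sequence of Pou5f1, was a low-count member, with 91 to 287 counts per library. It measured 17.4 and 11.1 CPM in control, 17 and 16.4 CPM at 3 h and 9.47 and 7.51 CPM at 6 h. Both 6 h libraries were below all others, and the controls spanned the 3 h values. The log2 fold change was 0.21 ± 0.25 (SE) at 3 h (edgeR adjusted p = 0.641), -0.76 ± 0.25 at 6 h (edgeR adjusted p = 0.0486) and -0.97 ± 0.24 between 6 h and 3 h (edgeR adjusted p = 0.0908). The 6 h value was -0.39 without control replicate 1 (edgeR adjusted p = 0.276) and -1.03 without control replicate 2 (edgeR adjusted p = 0.0126), and the call was also lost without any 1 of the treated libraries. It was lost with library totals alone (-0.41, edgeR adjusted p = 0.235), upper-quartile scaling (0.0526), the stricter filter (0.0556), only the libraries compared (0.0825) and thinning to the smallest total (0.101). DESeq2 and limma-voom called the comparison of 6 h with 3 h (adjusted p = 0.0222 and 0.0457), with a log2 fold change of -0.97 in each, and so did edgeR without either control replicate (adjusted p = 0.026 and 0.0249).

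Prdm14, which represses fibroblast growth factor receptor and DNA methyltransferase genes in naive cells, had 102 to 400 counts per library. It measured 7.78 and 12.5 CPM in control, 15.5 and 15.9 CPM at 3 h and 13.2 and 12.8 CPM at 6 h. All 4 treated libraries were above both controls, although the 6 h libraries only just cleared the higher one. The log2 fold changes of 0.66 ± 0.24 (SE) at 3 h and 0.38 ± 0.24 at 6 h did not pass (edgeR adjusted p = 0.139 and 0.264). The values differed with the control used: without control replicate 1 they were 0.33 and 0.06, and without control replicate 2 they were 1.02 and 0.74, both called (edgeR adjusted p = 0.0448 and 0.0415). With library totals alone and all libraries, the 6 h value was 0.74 and was called (edgeR adjusted p = 0.0447).

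**Figure D2:**
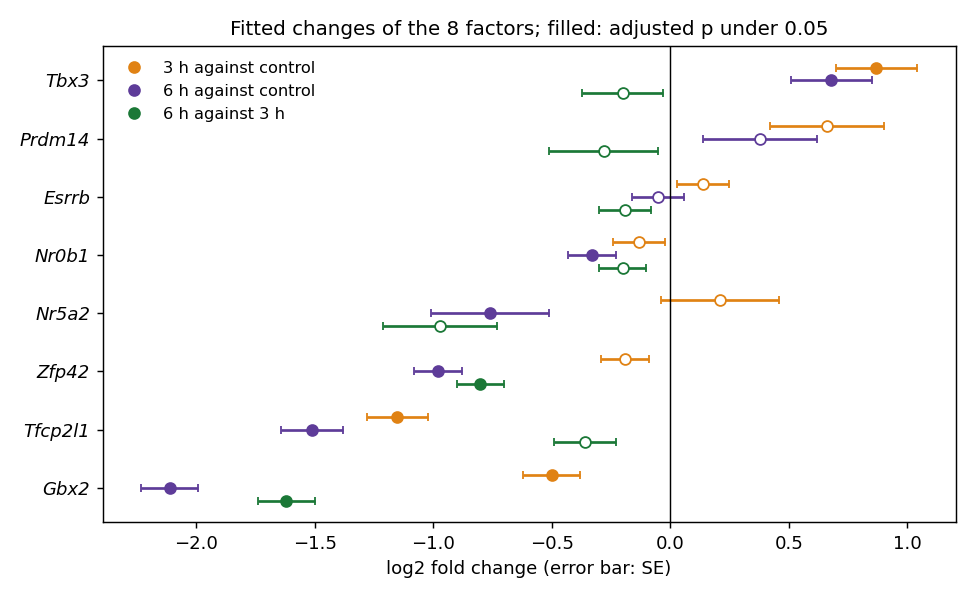
Log2 fold change (x axis) with its SE (bars) for each gene in the 3 comparisons (colours), with filled points where the edgeR adjusted p was under 0.05. All 8 points for 6 h against 3 h lie below 0, 2 of them filled, and Tbx3 is the only gene with filled points above 0.

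The direct comparison of 6 h with 3 h asks whether the members moved further with longer treatment. Its fold changes come from the treated libraries, while the controls enter its estimate of spread and so its p-values. All 8 had a lower mean at 6 h than at 3 h, and their groups did not overlap on the TMM scale, where 54.1% of all tested genes had groups that did not overlap and 49.3% a lower mean. On CPM without TMM scaling all 8 means were again lower, as for 36.2% of all genes, and the groups did not overlap for 5 of the 8, as for 56% of all genes. The fitted change was below 0 for all 8 in each of the 17 alternative fits, and on the TMM scale it ranged from -1.62 for Gbx2 to -0.19 for Esrrb, with a median of -0.32 where that of all genes was 0.01. The test called 2 members, Gbx2 and Zfp42, both lower, where 1.64% of all genes were called, 1.18% lower and 0.455% higher. The changes of Tfcp2l1 (-0.36), Nr5a2 (-0.97), Prdm14 (-0.28), Tbx3 (-0.20), Nr0b1 (-0.20) and Esrrb (-0.19) did not pass.

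**Figure D3:**
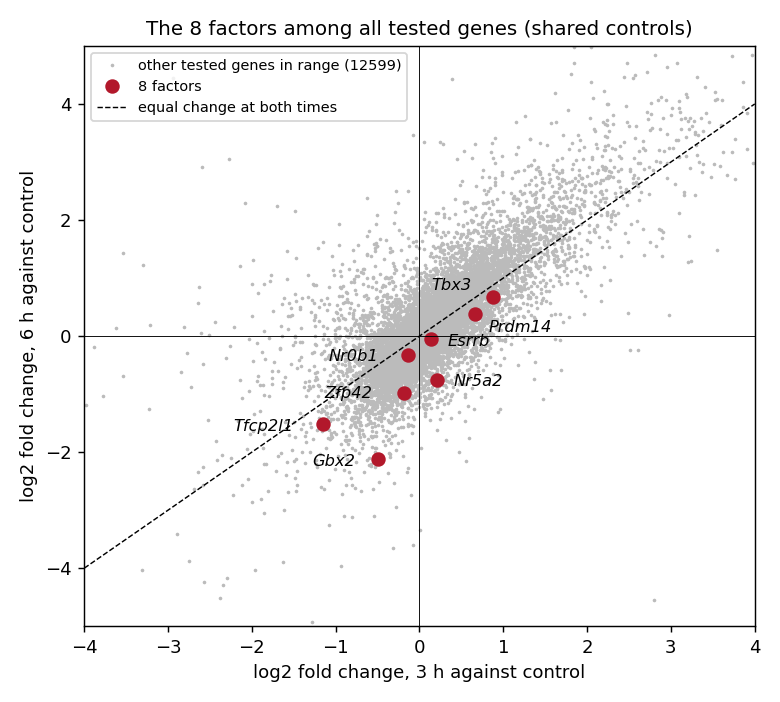
Log2 fold change at 3 h (x axis) and at 6 h (y axis), both against the same control libraries, for the 8 genes (red) and the other tested genes (grey; 148 genes lie outside the axes). All 8 genes lie below the dashed line of equal change, with Tfcp2l1 nearest to it of the pair called lower at both times and Gbx2 farther from it.

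Counts of 1 member divided by those of another in the same library do not depend on how libraries are scaled. Esrrb was taken as the divisor after its values were seen, because it changed least at 6 h. Gbx2 held 0.448 and 0.442 counts per Esrrb count in the controls, 0.315 and 0.259 in the 3 h libraries and 0.104 and 0.109 in the 6 h libraries. Tfcp2l1 held 0.334 and 0.324 in the controls, 0.155 and 0.116 in the 3 h libraries and 0.117 and 0.122 in the 6 h libraries. Both were lower relative to Esrrb in every treated library than in either control, and the Tfcp2l1 ratio at 6 h lay within its 3 h range. Zfp42 held 1.5 and 1.28 in the controls, 1.23 and 0.998 in the 3 h libraries and 0.744 and 0.713 in the 6 h libraries. Tbx3 held 0.247 and 0.163 in the controls, 0.331 and 0.345 in the 3 h libraries and 0.363 and 0.314 in the 6 h libraries, so its treated libraries were above both controls on this measure too. Nr0b1 had 0.585 and 0.546 counts per Esrrb count in control. At 3 h it had 0.51 and 0.43, and at 6 h 0.507 and 0.427. Its treated libraries were below both controls, at nearly the same values at both times.

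Gbx2 was also set against Tfcp2l1 directly, a pair chosen after the values were seen. There were 1.34 and 1.37 Gbx2 counts per Tfcp2l1 count in the controls. The 3 h libraries gave 2.03 and 2.23, and the 6 h libraries 0.888 and 0.894. The ratio was thus higher than control in both 3 h libraries and lower in both 6 h libraries. With 2 libraries a group, an exact permutation test of such a ratio cannot give a two-sided p below 0.333, so no test was made.

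**Figure D4:**
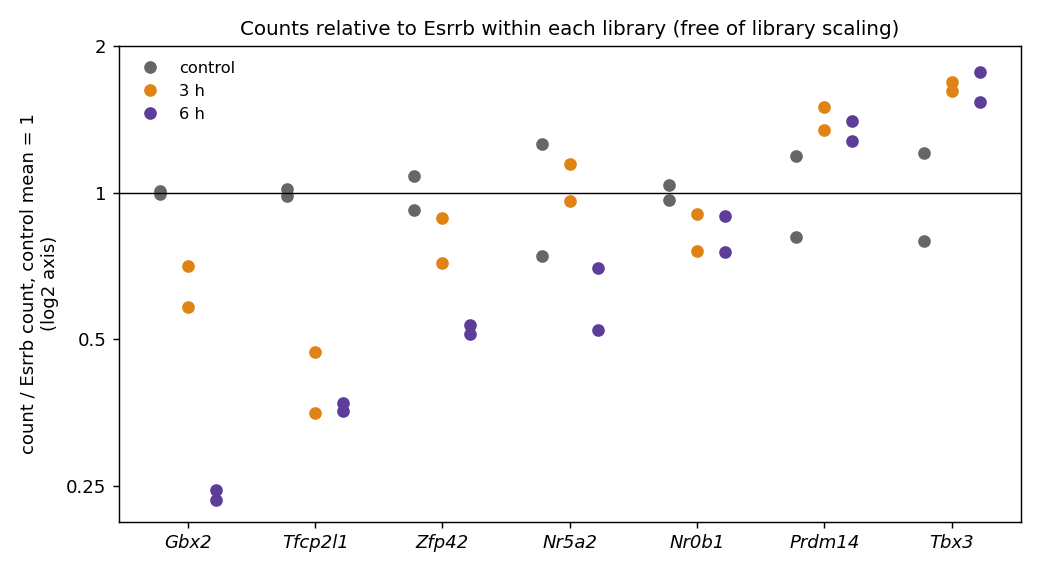
Counts of 7 genes divided by the Esrrb count of the same library, relative to the control mean of that ratio (y axis, log2 scale; 1 is the control mean), with 2 points per group. Gbx2, Tfcp2l1, Zfp42 and Nr0b1 are below 1 in all 4 treated libraries, and Tbx3 and Prdm14 are above 1.

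The longest annotated 3′ untranslated region (UTR) of each member was searched for ATTTA, the core of AU-rich elements, which are known from short-lived messages. Tfcp2l1 held 7 copies in 7734 bases, and 14.1% of the 11566 tested genes with such a region held as many or more. Nr5a2 held 4 in 2892 bases, Gbx2 3 in 664, Nr0b1 2 in 352 and Tbx3 2 in 1632, where the median tested gene held 2. Esrrb held 1 in 2563 bases, Prdm14 1 in 803 and Zfp42 0 in 533, while 70% of tested genes held at least 1. Per kilobase, Nr0b1 (5.68) and Gbx2 (4.52) were above the median of tested genes (1.3), Prdm14 (1.25), Tbx3 (1.23) and Nr5a2 (1.38) were near it, and Tfcp2l1 (0.905) and Esrrb (0.39) were below it. TATTTAT was present in Tfcp2l1, Tbx3, Nr5a2 and Gbx2, and 30.3% of tested genes hold it. Of these 4, Tfcp2l1, Nr5a2 and Gbx2 were called lower and Tbx3 higher at 6 h; of the 4 without it, Zfp42 and Nr0b1 were called lower and Esrrb and Prdm14 were not called.

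Other genes of the pluripotency network moved in both directions. Of 24 listed, all tested, 5 were higher and 1 lower at 3 h, and 8 were higher and 8 lower at 6 h, with a median log2 fold change of 0.05 and -0.20 (0.27 and 0.16 with library totals alone). Zfp296, a zinc-finger factor that aids reprogramming, had the smallest p of those lower at 6 h (-4.18 ± 0.20, SE; edgeR adjusted p = 2.31e-05), followed by Fgf4, the growth factor that drives exit from the naive state (-1.30, adjusted p = 0.000309), the Myc-family gene Mycn (-1.33, adjusted p = 0.000509), the corepressor Trim28 (-0.67, adjusted p = 0.00686) and the Krüppel-like Klf5 (-0.61, adjusted p = 0.00862). Zfp281 (1.08, edgeR adjusted p = 0.00075), the Krüppel-like Klf2 (1.06, adjusted p = 0.00648), Rif1 (0.83, adjusted p = 0.00807) and Stat3 (0.63, adjusted p = 0.00819) were higher. Dppa3 was also called higher, from 0 counts in both controls to 55 and 41 at 6 h. Pou5f1, at 125 to 153 CPM in all libraries, did not pass at 3 h or 6 h (edgeR adjusted p = 1 and 0.39). Nanog, at 3.86 to 10 CPM, did not pass either (adjusted p = 0.722 and 0.244), and Sox2 was higher at 3 h only (0.68 and -0.05; edgeR adjusted p = 0.00841 and 0.72), a difference that the direct comparison called (-0.73, adjusted p = 0.0106).

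Genes of the formative and primed states, which normally rise as naive factors are lost, did not move one way. Of 20 listed, 17 were tested, with 2 higher and 1 lower at 3 h and 6 higher and 7 lower at 6 h (median log2 fold change -0.08 and -0.17, or 0.14 and 0.19 with library totals alone). Sox3 (2.29, edgeR adjusted p = 0.00354), Zic2 (2.42, adjusted p = 0.00506) and Pim2 (1.40, adjusted p = 0.00553) were higher at 6 h by the smallest p. Foxd3 (-2.57, edgeR adjusted p = 5.13e-05), Tcf15 (-2.24, adjusted p = 8.07e-05) and Pou3f1 (-1.55, adjusted p = 0.00505) were lower. Fgf5, the usual marker of the formative epiblast, was not tested and stayed at or below 0.969 CPM in every library. Otx2, from the same list, was called higher at both times from 12 and 2 control counts (2.51 and 2.84, edgeR adjusted p = 0.037 and 0.00605).

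Inputs to the naive factors from the LIF and WNT pathways, 18 of 19 tested, gave 1 called gene at 3 h, which was higher, and 2 higher and 4 lower at 6 h, with a median log2 fold change of 0.07 and -0.33 (0.30 and 0.03 with library totals alone). The one called at 3 h was Socs3, the feedback inhibitor that Stat3 induces, which rose from 92.9 and 94.3 CPM to 245 and 240 CPM (1.37; edgeR adjusted p = 4e-04) and then fell to 54.3 and 57.4 CPM (-0.75 at 6 h; edgeR adjusted p = 0.00264). Tcf7l1, the repressor of Esrrb and other naive genes, was higher at 6 h (0.44, edgeR adjusted p = 0.0307). The other gene higher at 6 h was Stat3, already named and counted above among the other pluripotency genes. Jak1 (-0.67) and Ctnnb1 (-0.58) were lower (edgeR adjusted p = 0.00787 and 0.00981).

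Of partners, paralogues and targets of the members, 18 of 23 were tested. At 3 h edgeR called 0 of them, with 4 at an unadjusted p under 0.05, while DESeq2 called 1 and limma-voom 0. At 6 h 2 were higher and 3 lower, with a median log2 fold change of -0.02 (0.33 with library totals alone). These were the Prdm14 targets Fgfr2 (2.94, edgeR adjusted p = 0.00863, from 10 and 47 control counts) and Dnmt3b (-0.75, adjusted p = 0.0144), the Tfcp2l1 paralogue Tfcp2 (1.05, adjusted p = 0.011), the Esrrb coactivator Ncoa3 (-0.60, adjusted p = 0.0343) and Suz12 (-0.32, adjusted p = 0.0445).

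By their profile over the 6 libraries, the genes most like Gbx2 among 5961 with at least 20 CPM were Hspa8 (root mean square difference 0.101 on the log2 scale), Tubb3 (0.144) and Vegfa (0.148). Their log2 fold changes at 6 h were -2.01, -1.88 and -2.08. The genes most like Tbx3 were Csrnp1 (0.065), Kansl1 (0.09) and Zfp763 (0.096), with 0.67, 0.62 and 0.78 at 6 h. Both sets were chosen by profile in these same libraries, so fold changes close to those of the member follow from the choice.

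The stem cell markers Pou5f1, Sox2, Sall4 and Utf1 were present in every library, and Nanog was present at the level given above. Utf1, also counted among the formative and primed genes, was called lower at 6 h (-0.75, edgeR adjusted p = 0.00835). Changes in markers of other cell types were mixed. The summed level of 10 listed extraembryonic endoderm markers, all tested, was 551 to 567 CPM in control, 462 to 467 at 3 h and 319 to 354 at 6 h, and most of it was Sparc, with means of 455, 362 and 279 CPM. The median log2 fold change of the list was 0.53 at 3 h and 0.62 at 6 h. Of the 10 genes, 5 were above 0 at 3 h and 6 at 6 h. The defining Gata6, Gata4, Sox17 and Pdgfra lay between 0.367 and 7.11 CPM. Their 3 h libraries were above both controls, and 53.2% of all tested genes had 3 h and control groups that did not overlap. The log2 fold changes of 1.45, 1.76, 1.76 and 2.68 did not pass (edgeR adjusted p = 0.205, 0.127, 0.231 and 0.0693). At 6 h the values were 0.57, 1.33, 1.66 and 1.39, and again did not pass. Of the rest of the list, Foxa2 was above 0 at 3 h (1.12). Dab2 (-1.1), Sparc (-0.33), Col4a1 (-0.32), Sox7 (-0.28) and Lama1 (-0.05) were below 0 at 3 h. Of these 10, 0 were called at 3 h by edgeR (3 at an unadjusted p under 0.05, 2 by DESeq2), and the 3 calls at 6 h were all lower: Sox7 (-2.95, edgeR adjusted p = 0.000104), Sparc (-0.71, adjusted p = 0.00296) and Lama1 (-0.63, adjusted p = 0.0342). Of 8 trophoblast markers 7 were in the files, with Cdx2 at or near 0. Their sum was 23.4 to 24.8 CPM in control, 25.6 to 32.4 at 3 h and 37.3 to 42.1 at 6 h. Gata3 (2.52, edgeR adjusted p = 0.00479) and Ascl2 (1.46, adjusted p = 0.0094) were higher at 6 h. Eomes (-0.41), Hand1 (-0.16) and Tead4 (-0.14), the rest of those tested, were below 0 at 6 h and did not pass. The list's median log2 fold change at 6 h was -0.14, with 2 of 5 tested genes above 0. Of 8 fibroblast markers 6 were in the files, with Col1a2, Dcn and Lum at or near 0 and a sum between 4.71 and 10.5 CPM. Pdgfrb, with 1 and 3 counts in control and 36 and 43 at 6 h, was called higher by edgeR (adjusted p = 0.037). Thy1 (-1.21, edgeR adjusted p = 0.0836) and Col1a1 (-0.15, adjusted p = 0.856), the rest of those tested, did not pass at 6 h. The list's median log2 fold change at 6 h was -0.15. At 6 h DESeq2 called 1 fibroblast marker and limma-voom 0. The 8 germ layer markers summed to 62.3 to 81.1 CPM in control, 94.2 to 119 at 3 h and 63.4 to 76 at 6 h, most of it Sox1. Among the 4 tested, edgeR called 0 in any comparison, with 1 at an unadjusted p under 0.05 in each, and DESeq2 called 1 at 3 h, 0 at 6 h and 1 between the times. The part of such cells in the members' results was not tested.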

How the data were processed

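Per the labels' protocols, TRIzol was used for RNA extraction, and barcodes were added to polyadenylated RNA of each sample before the 6 libraries (3 groups of 2) were pooled. The files deposited by the authors hold raw counts for each gene name, with mm10 named in the submitters' processing notes; aligner, counting program, annotation, strandedness and use of molecular identifiers are not given in the sources used here. Groups and replicate numbers came from the sample titles. The 8 members and the gene lists were chosen with earlier results of these data known, so no list is independent support.

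Genes were kept by edgeR's filterByExpr (minimum count 10, total 15, at least 2 libraries), leaving 12755, with TMM scaling. All 6 libraries entered 1 quasi-likelihood fit of 3 group means (edgeR 4.0.16, R 4.3.3), with no replicate block, and p-values were adjusted by the Benjamini-Hochberg method over all tested genes. SE is the log2 fold change divided by the square root of F. The fit was tested on simulated data. A gene called in neither direction is said not to pass. All members were described. Genes of other lists were named by the smallest p at 6 h in each direction (up to 3, or 5 for the pluripotency list), with Pou5f1, Sox2 and Nanog. Fgf5, Otx2, Utf1 and the markers given by level or as the rest of a marker list were named after their values were seen. The lists share some genes, among them Stat3 and Dnmt3b. Genes most like a member were the 3 with the smallest root mean square difference of centred log2(CPM + 0.5) for the member with the smallest p in each direction. Alternatives were other scalings, filters, tools (DESeq2 1.42.0, limma-voom 3.58.1), thresholds, a replicate block, thinning and leaving out each library. Replicates differed beyond counting noise (chi-square per degree of freedom 18.7 to 27.7), so none was treated as a repeat deposit. The floor of 3 counts covers counting error only.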

Additional observations from a re-analysis of the deposited data

Results flagged for a closer look

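For 2 genes the effect of 3 h and that of 6 h of cycloheximide differed by the direct test in edgeR. Levels at 6 h were below those at 3 h for Gbx2 (log2 fold change -1.62) and Zfp42 (-0.80). The Zfp42 call is lost without any 1 of the 4 treated libraries. Tfcp2l1 (-0.36) and Tbx3 (-0.20) did not pass that test.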

How the results depend on the processing

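The number of members called was 3 at 3 h, 6 at 6 h and 2 between 6 h and 3 h. It became 1, 3 and 2 at an adjusted p under 0.01, 1, 2 and 1 when a change of at least 2-fold was also required, and 1 at 3 h with only the libraries compared. Leaving out 1 library gave 1 to 3 at 3 h, 3 to 5 at 6 h and 1 to 3 between the times. The members called in all 17 alternative fits were Tfcp2l1 at 3 h, Gbx2, Tfcp2l1 and Zfp42 at 6 h, and Gbx2 between the times. Fits with 1 library fewer also have fewer residual degrees of freedom, and a lone library is then assumed to vary like the others.

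With the replicate block the counts were 2, 5 and 2 (Gbx2 at 3 h and Nr0b1 at 6 h were lost, with edgeR adjusted p = 0.0658 and 0.0506), and the count of all genes called between 6 h and 3 h went from 209 to 126. The numbers do not pair the libraries: over 7335 genes the differences between replicates 1 and 2 correlated at 0.234 between control and 3 h, -0.0551 between control and 6 h and 0.0102 between 3 h and 6 h.

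With library totals alone the direction turned for Zfp42 at 3 h (0.04), Nr0b1 at 3 h (0.10) and 6 h (0.03) and Esrrb at 6 h (0.31), of which Nr0b1 at 6 h had been called on the TMM scale. List medians that turned with it were, at 3 h, formative and primed genes (0.14) and trophoblast markers (0.08); at 6 h, other pluripotency genes (0.16), formative and primed genes (0.19), LIF and WNT inputs (0.03), partners and targets (0.33), trophoblast (0.22), fibroblast (0.21) and germ layer markers (0.10); and between the times, LIF and WNT inputs (0.02) and partners and targets (0.09). Without control replicate 2, Nr5a2 at 3 h (-0.06) and Esrrb at 6 h (0.01) turned; over all libraries left out they ranged from -0.06 to 0.58 and from -0.11 to 0.01.

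Counts over all genes that moved by more than 1.5 times were, at 3 h (625), 1373 with library totals alone, 1816 without a filter, 1437 by DESeq2 and 218 with only the libraries compared. Between the times (209) they were 1063 without a filter, 692 by DESeq2, 508 by limma-voom and 563 with only the libraries compared. At an adjusted p under 0.01 the counts were 133, 1572 and 43, and at 2-fold or more 328, 1516 and 111. Leaving out 1 library gave 108 to 1033 at 3 h, down to 1312 at 6 h, and 14 to 595 between the times. The cause of the other moves was not tested. Counts of 91 to 400 per library limit Nr5a2 and Prdm14.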
